A study of Mus musculus with 12 samples.

Results

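The genes described here are 10 genes of the unfolded protein response, named as a list: Ern1, Ern2, Xbp1, Atf4, Ddit3, Creb3l1, Hspa5, Pdia4, Dnajb9 and Herpud1. They were taken from the array by symbol, through the RefSeq accession of each probe, which gave 12 probes for 10 genes, of 41174 probes for 18539 named genes in all. Dnajb9 had 3 probes and every other gene 1. All 12 probes were well above background on all 12 arrays, and none was saturated.

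Messenger RNA of distal colorectal epithelium from female BALB/c mice was measured on day 100 with one-colour (Cy3) Agilent arrays, with 3 arrays in each of 4 groups. The labels give the age of the mice as 5 to 7 weeks, which cannot be their age on day 100, as treatment began on day 1. The AOM/DSS group received the colon carcinogen azoxymethane (AOM) once, at 12.5 mg/kg by intraperitoneal injection on day 1, and dextran sulfate sodium (DSS), which injures the colon lining, in the drinking water from day 5 for 5 days of each 21-day cycle over 3 cycles. The AOM group received AOM alone at 10 mg/kg, in 6 weekly injections from day 1. The DSS group received the same DSS cycles without AOM, and for the group labelled control no treatment is given. The labels' protocols state that neoplasms of the AOM/DSS mice were clipped with scissors, and stored in an RNA storage solution, while epithelium of the other 3 groups was scraped into Trizol, so treatment and way of sampling cannot be told apart where AOM/DSS is compared. The labels do not say whether arrays of a group came from separate mice, so the tests measure the spread between arrays, which may be technical.

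The unfolded protein response adjusts the folding capacity of the endoplasmic reticulum (ER) to its load. Sensors in the ER membrane act when unfolded proteins accumulate: IRE1 cuts the Xbp1 messenger RNA so that it is spliced to an active form, PERK slows translation and thereby favours translation of ATF4, and ATF6 and the related CREB3 family factors are cut free from the membrane to enter the nucleus. The targets are chaperones, folding enzymes and the machinery that removes misfolded proteins, called ER-associated degradation. In the gut the response is known from goblet and Paneth cells, which secrete much protein. Splicing of Xbp1 and translation of Atf4 are steps that an array of messenger RNA does not read as such, and whether the Xbp1 probe separates the spliced from the unspliced form was not analysed here.

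Promoter windows of the target genes Hspa5 and Herpud1 are shown because they were the ones in which the ER stress elements searched for were found. The windows hold the 250 bases before the annotated gene start, 5′ to 3′ on the strand of the gene, from RefSeq with the mouse build GRCm38.p6, and a window was available for 8 of the 10 genes. In the Hspa5 window, at chr2:34771840-34772089 on the plus strand, the capitals mark the ER stress response element, which is CCAAT and CCACG with 9 bases of any kind between them. In the Herpud1 window, at chr8:94386179-94386428 on the plus strand, the first capitals mark a match to the C/EBP-ATF response element TGATGNAA on the opposite strand and the second the ER stress response element II, which is ATTGG and CCACG with any 1 base between them.
Hspa5: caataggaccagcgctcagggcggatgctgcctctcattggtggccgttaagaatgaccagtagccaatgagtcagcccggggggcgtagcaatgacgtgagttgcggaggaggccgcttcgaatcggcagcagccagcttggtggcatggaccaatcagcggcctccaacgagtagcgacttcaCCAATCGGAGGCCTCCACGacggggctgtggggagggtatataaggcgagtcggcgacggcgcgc
Herpud1: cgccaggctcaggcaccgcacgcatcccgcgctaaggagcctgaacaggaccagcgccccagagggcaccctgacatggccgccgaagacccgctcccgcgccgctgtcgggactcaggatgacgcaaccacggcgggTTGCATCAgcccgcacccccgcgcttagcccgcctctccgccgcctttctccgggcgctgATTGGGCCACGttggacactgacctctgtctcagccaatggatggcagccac
Both strands were searched, and no match overlapped another. The ER stress response element of Hspa5 stood at positions -65 to -47 from the gene start, and 37 of 32851 promoter windows of the same length (0.113%) held this element. The ER stress response element II of Herpud1 stood at -52 to -42, and 10 windows (0.0304%) held it. The C/EBP-ATF match of Herpud1 stood at -112 to -105, an element that 1134 windows (3.45%) held. The unfolded protein response element TGACGTGG was in none of the 8 windows and in 185 of all windows (0.563%). A match describes the letters only.

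All levels below are log2 of the processed intensity relative to the 75th percentile of the same array, so that 0 is the level of that percentile. AOM/DSS arrays were brighter, with a 75th percentile of 1115 to 1185 intensity units against 393.5 to 694.1 in the other groups, and 62.6 to 66.2% of their probes were well above background against 52.0 to 59.3%. The number of arrays limits the precision. Changes come from limma fitted on 19130 genes over the 12 arrays, with Benjamini-Hochberg adjustment over all of them. Of these, 13511 had a symbol, and the rest were probes without a symbol, each counted as a gene in every share over all genes. A gene is called at an adjusted p under 0.05. The 9 epithelial markers (Epcam, keratins and others) were above background on all arrays, with a summed linear level of 646.4 to 773.4 on AOM/DSS, 1429 to 1705 on AOM, 1260 to 2304 on DSS and 1114 to 1983 on control arrays. Genes of pancreatic acinar cells stood out most on control replicate 3 and DSS replicate 1. The median log2 level of 18 such genes was 5.96 and 2.95 on these arrays, against -3.09 to 1.00 on the other 10. Control replicates 1 and 2 carried such genes too. Amy2a5 and Pnlip were well above background on all 3 control arrays and on no AOM/DSS array. The median log2 level of the 18 was 1.00 and -1.15 on control replicates 1 and 2, below the 2.95 of DSS replicate 1. On AOM/DSS arrays it was -2.99 to -2.82. Leaving out control replicate 3 and DSS replicate 1 therefore does not remove these genes from the controls. DSS replicate 1 was also closer over all genes to control replicate 3 than to its own group. Acinar cells are rich in ER, so results that turn on these arrays are given with and without them. The slides held slide 1 with AOM/DSS replicates 1 and 2 and AOM replicates 1 and 2, slide 2 with AOM replicate 3 and the DSS arrays, and slide 3 with AOM/DSS replicate 3 and the control arrays.

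In AOM/DSS neoplasms 3 of the 10 genes fell relative to control epithelium, namely Creb3l1, Ern2 and Herpud1, and none rose at the threshold. Over all genes 34.7% were called in this comparison, 17.2% higher and 17.4% lower, so a share of 3 in 10 is near the background. The median change of the 10 genes was -0.22 on the log2 scale, against 0.03 over all genes tested. The groups did not overlap for 3 genes lower in AOM/DSS and 1 higher, Hspa5, against 26.1% lower and 26.2% higher over all genes. Without control replicate 3 and DSS replicate 1, 4 genes were called, the same 3 lower and Hspa5 higher.

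**Figure D1:**
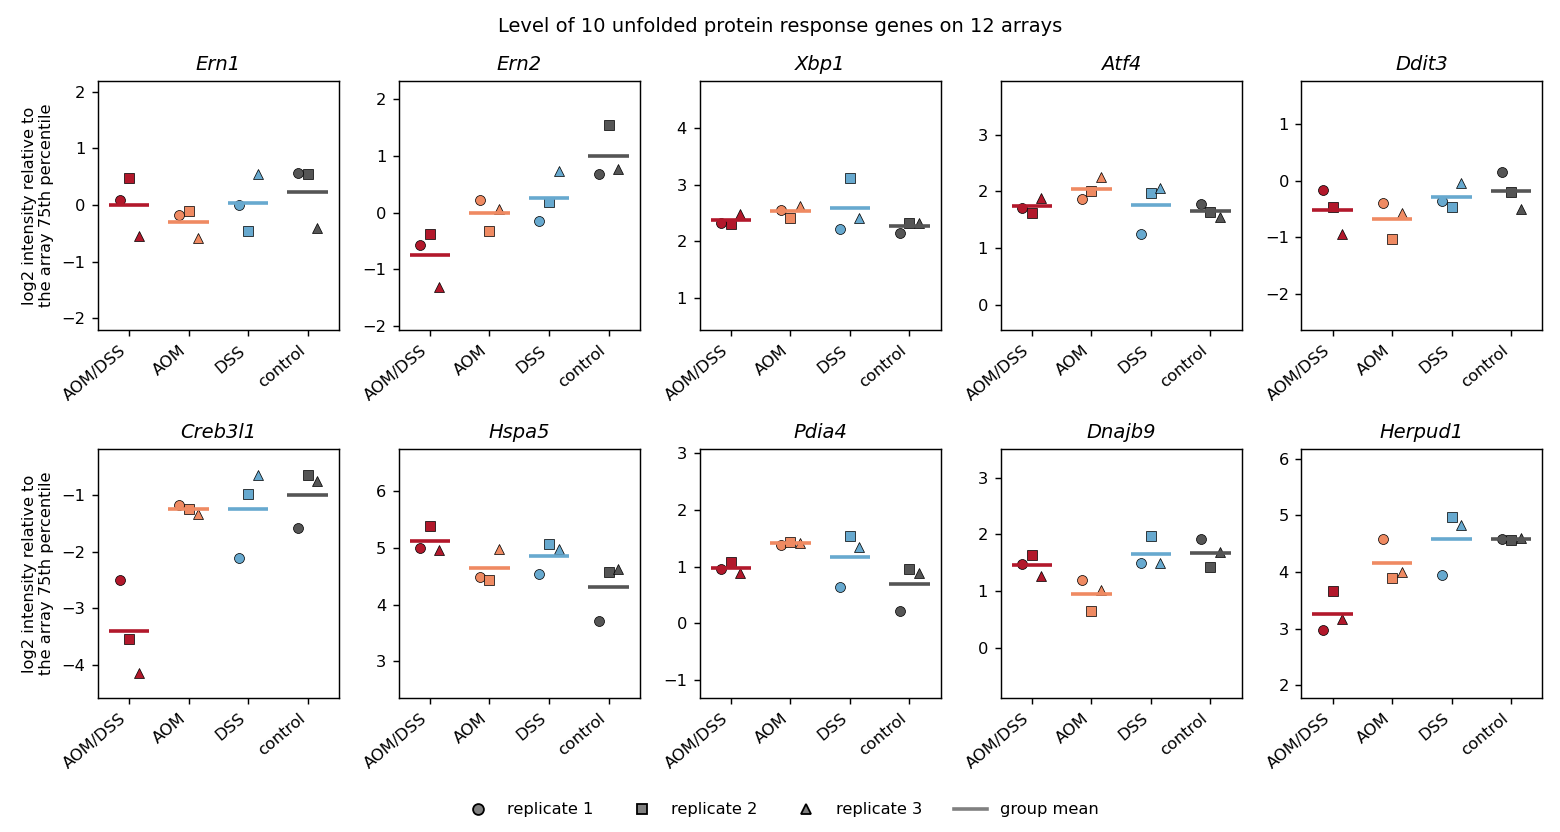
Level of each of the 10 genes on each array, as log2 of the processed intensity relative to the 75th percentile of the array (y axis, the same span in each panel but centred on its gene), by group in the order AOM/DSS, AOM, DSS and control; points are arrays, shaped by replicate number, and lines are the mean of 3 arrays. Creb3l1 lies at -4.13 to -2.50 on the AOM/DSS arrays, below all other arrays, and Xbp1 spans 2.15 to 3.11 over all groups.

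Both IRE1 sensor genes were measured. Ern2 encodes IRE1β, the IRE1 form of mucous epithelia such as the colon, and its level was -0.57, -0.37 and -1.31 on AOM/DSS arrays, 0.23, -0.32 and 0.06 on AOM arrays, -0.15, 0.18 and 0.74 on DSS arrays, and 0.68, 1.55 and 0.78 on control arrays. All AOM/DSS arrays lay below all arrays of the other groups, and the AOM arrays also lay below the controls, while 1 DSS array overlapped them. In order of mean level the groups ran AOM/DSS (-0.75 ± 0.49), AOM (-0.01 ± 0.28), DSS (0.26 ± 0.45) and control (1.00 ± 0.48; SD, n = 3 each), and AOM and DSS lay within their spread of each other. Ern2 was 3.38-fold lower in AOM/DSS than in control (log2 change -1.76 ± 0.34 SE, adjusted p = 0.003), and this call held in the 25 alternative settings tried, over a range of -2.31 to -1.41.

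Ern1 encodes IRE1α, the form found in most cells. Its level ranged from -0.55 to 0.47 on AOM/DSS arrays, from -0.58 to -0.11 on AOM arrays, from -0.45 to 0.54 on DSS arrays and from -0.41 to 0.56 on control arrays. The groups overlapped, and the largest change from control, -0.52 in AOM, was within the SD of 0.55 between the control arrays. The change of AOM/DSS against control was -0.23, with a 95% interval of -1.04 to 0.58 and an adjusted p of 0.664.

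Among the transcription factors, Creb3l1 showed the largest change of the 10 genes in AOM/DSS. It encodes OASIS, a factor held in the ER membrane until it is cut, which in mice takes part in the maturation of colonic goblet cells. Its level was -2.50, -3.55 and -4.13 on AOM/DSS arrays, -1.17, -1.24 and -1.33 on AOM arrays, -2.12, -0.98 and -0.64 on DSS arrays, and -1.58, -0.65 and -0.75 on control arrays. The AOM/DSS arrays were the lowest 3 of the 12, and the other groups overlapped. Means were -3.39 ± 0.83 in AOM/DSS, -1.25 ± 0.08 in AOM, -1.24 ± 0.77 in DSS and -0.99 ± 0.51 in control (SD, n = 3 each), and the AOM, DSS and control means did not differ beyond their spread. Creb3l1 was 5.28-fold lower in AOM/DSS than in control (log2 change -2.40 ± 0.47 SE, adjusted p = 0.003), with a range of -3.14 to -2.03 over the settings tried.

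Xbp1, the factor activated through IRE1, had levels of 2.32, 2.31 and 2.49 on AOM/DSS arrays, 2.56, 2.41 and 2.63 on AOM arrays, 2.22, 3.11 and 2.42 on DSS arrays, and 2.15, 2.33 and 2.33 on control arrays. The AOM/DSS and control arrays overlapped, the AOM arrays lay just above the controls, and the widest spread was within DSS. Its change in AOM/DSS against control was 0.11, with a 95% interval of -0.41 to 0.62 and an adjusted p of 0.755. Atf4, the factor of the PERK branch and of the wider integrated stress response, had levels of 1.61 to 1.88 on AOM/DSS arrays, 1.87 to 2.25 on AOM arrays, 1.24 to 2.06 on DSS arrays and 1.54 to 1.78 on control arrays. The AOM arrays lay above the control arrays without overlap, but the change of AOM/DSS against control was 0.08 (adjusted p = 0.820; 95% interval -0.44 to 0.61). Ddit3, which encodes CHOP, a factor linked to cell death under lasting stress, had levels of -0.94 to -0.16 on AOM/DSS arrays, -1.04 to -0.40 on AOM arrays, -0.46 to -0.04 on DSS arrays and -0.50 to 0.15 on control arrays. All groups overlapped the controls, and its change in AOM/DSS against control was -0.34 (adjusted p = 0.363; 95% interval -0.94 to 0.26). An interval that spans 0 does not show that these levels are alike.

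Of the targets, Herpud1 fell in AOM/DSS. It encodes an ER membrane protein of the degradation machinery, and its level was 2.98, 3.66 and 3.16 on AOM/DSS arrays, 4.59, 3.90 and 4.01 on AOM arrays, 3.96, 4.97 and 4.84 on DSS arrays, and 4.59, 4.57 and 4.60 on control arrays. All AOM/DSS arrays lay below all other arrays, and the controls were within 0.02 (SD) of their mean of 4.58. Herpud1 was 2.49-fold lower in AOM/DSS than in control (log2 change -1.32 ± 0.31 SE, adjusted p = 0.008). The call was lost with normexp background correction (-0.75, adjusted p = 0.157) and with slide as a fixed block (-1.42, adjusted p = 0.088).

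Hspa5, which carries the ER stress response element shown above, encodes BiP, the main chaperone of the ER and the partner that keeps the sensors inactive. Its level was 5.00, 5.39 and 4.97 on AOM/DSS arrays, 4.49, 4.44 and 4.99 on AOM arrays, 4.55, 5.07 and 4.98 on DSS arrays, and 3.71, 4.58 and 4.64 on control arrays. The AOM/DSS arrays lay above the controls without overlap, and control replicate 1 was the lowest of the 12 arrays. The change of AOM/DSS against control was 0.81 ± 0.29 (SE; 95% interval 0.17 to 1.45), a 1.75-fold higher mean, at an adjusted p of 0.052, which misses the threshold. Without control replicate 1 this change was 0.51 (adjusted p = 0.194), the smallest in the settings tried. With arrays scaled to their median it was 0.66 (adjusted p = 0.169). It passed in 9 of the 25 alternative settings, among them without control replicate 3 and DSS replicate 1 (0.97, adjusted p = 0.030) and with quantile normalization (1.31, adjusted p = 0.009), and with slide as a fixed block it was 0.66 at an adjusted p of 0.331.

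Pdia4, a protein disulfide isomerase of the ER, had levels of 0.96, 1.09 and 0.88 on AOM/DSS arrays, 1.39, 1.43 and 1.41 on AOM arrays, 0.65, 1.54 and 1.34 on DSS arrays, and 0.22, 0.96 and 0.89 on control arrays. The AOM arrays were close together and above the controls, while the AOM/DSS arrays overlapped them (change 0.29, adjusted p = 0.439). Dnajb9, a partner of BiP also called ERdj4, had levels of 1.48, 1.64 and 1.27 on AOM/DSS arrays, 1.19, 0.65 and 1.01 on AOM arrays, 1.49, 1.96 and 1.50 on DSS arrays, and 1.92, 1.42 and 1.68 on control arrays. The AOM arrays were the lowest 3 of the 12, and the AOM/DSS arrays overlapped the controls (change -0.21, adjusted p = 0.517).

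**Figure D2:**
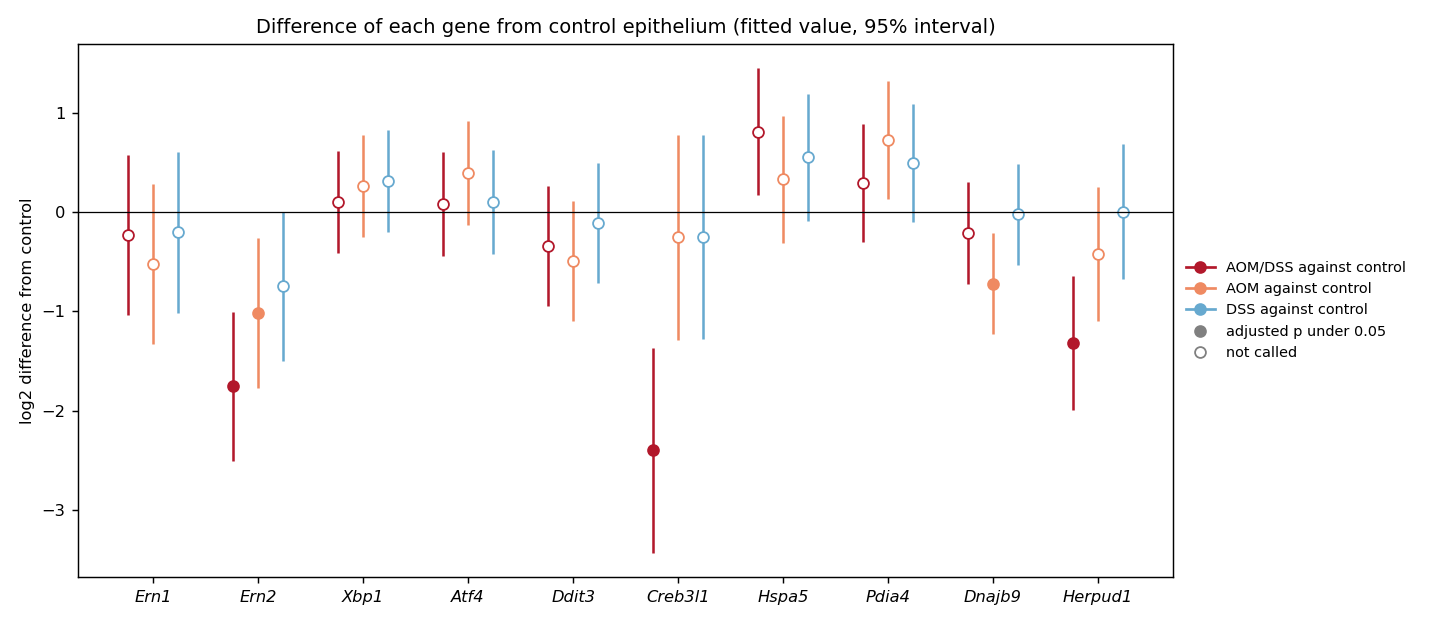
Change of the 10 genes on the log2 scale (y axis) in AOM/DSS, AOM and DSS against control; points are the fitted changes, whiskers are 95% intervals, and filled points passed an adjusted p of 0.05. The 3 called changes of AOM/DSS run from -2.40 for Creb3l1 to -1.32 for Herpud1, and no DSS point is filled.

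In AOM epithelium 2 genes fell relative to control, Ern2 and Dnajb9, and none rose. Over all genes 32.5% were called, 14.8% higher and 17.7% lower, so 2 in 10 is no more than the background, and the median change was -0.34 for the 10 genes and -0.01 over all genes. Ern2 was 2.02-fold lower in AOM than in control (log2 change -1.01 ± 0.34 SE, adjusted p = 0.044) and Dnajb9 1.65-fold lower (-0.72 ± 0.23 SE, adjusted p = 0.037). The groups did not overlap for these 2 genes, and for Xbp1, Atf4 and Pdia4 the AOM arrays lay above the controls without overlap, against 26.7% lower and 22.5% higher over all genes. The change of Pdia4 was 0.72 ± 0.27 (SE) at an adjusted p of 0.060, and 0.82 at 0.023 without control replicate 3 and DSS replicate 1, where Dnajb9 was no longer called (-0.71, adjusted p = 0.056). Among the other genes, Hspa5 changed by 0.33, Herpud1 by -0.42 and Creb3l1 by -0.25, none of them called (adjusted p = 0.389, 0.301 and 0.691).

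The 3 probes of Dnajb9 gave changes of AOM against control of -0.72, -0.77 and -0.63, with adjusted p of 0.036, 0.030 and 0.069 when each probe was tested on its own. No slide held both AOM and control arrays. With slide as a fixed block the changes were -1.88 for Ern2 and -1.04 for Dnajb9, with adjusted p of 0.263 and 0.292. The call of Ern2 was lost in 14 of 25 alternatives and that of Dnajb9 in 13, several of which left out a single array: without AOM replicate 2 Ern2 changed by -0.86 (adjusted p = 0.139) and Dnajb9 by -0.57 (adjusted p = 0.134), and without control replicate 2 Ern2 changed by -0.74 (adjusted p = 0.153). Over all arrays left out in turn, 0 to 3 genes were called.

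In DSS epithelium none of the 10 genes was called against control by limma, and none had an unadjusted p under 0.05. Over all genes 0.324% were called, 0.162% in each direction. The groups overlapped for all 10 genes, against 9.55% of all genes lower and 8.89% higher without overlap. The fitted changes ran from -0.75 for Ern2 (adjusted p = 0.239) to 0.55 for Hspa5 (adjusted p = 0.287), and the 95% intervals reached from -1.50 to 1.20, so changes of this size were not excluded by the 3 arrays. DSS replicate 1 was the lowest DSS array for all 10 genes except Ern1 and Ddit3, though for Dnajb9 only by 1.49 against 1.50. Without it and control replicate 3, Pdia4 was called higher (0.86, adjusted p = 0.044, against 0.49 and 0.305 with all arrays), and 4333 in place of 62 of all genes were called.

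Set against AOM epithelium, AOM/DSS neoplasms had lower Creb3l1 and Herpud1, and no gene was called higher. These groups differed in the dose and schedule of AOM as well as in DSS and in way of sampling. Over all genes 37.1% were called, 19.5% higher and 17.6% lower, and the median change was -0.24 for the 10 genes and -0.04 over all genes. Creb3l1 was 4.43-fold lower in AOM/DSS than in AOM (log2 change -2.15 ± 0.47 SE, adjusted p = 0.009) and Herpud1 1.86-fold lower (-0.90 ± 0.31 SE, adjusted p = 0.042). Ern2 and Pdia4 were also below the AOM arrays without overlap, with changes of -0.74 (adjusted p = 0.106) and -0.44 (adjusted p = 0.215), and Dnajb9 lay above them without overlap, at 0.51 (adjusted p = 0.101), against 30.1% lower and 29.4% higher over all genes. The 3 probes of Dnajb9 gave 0.51, 0.66 and 0.31, with adjusted p of 0.102, 0.047 and 0.333 when each was tested on its own, and the arrays overlapped for the last. The change of Herpud1 lost its call in 13 of 25 alternatives, among them quantile normalization (-0.47, adjusted p = 0.169), where Hspa5 gained one (1.05, adjusted p = 0.029; 0.48 at 0.207 otherwise). Its call was also lost without any 1 of the 3 AOM arrays, AOM/DSS replicates 1 or 3, or control replicates 1 or 2, with changes of -1.03 to -0.68.

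Set against DSS epithelium, AOM/DSS neoplasms had lower Creb3l1, Herpud1 and Ern2, and no gene was called higher. Over all genes 35.8% were called, 17.6% higher and 18.2% lower, and the median change was -0.21 for the 10 genes and 0.04 over all genes. Creb3l1 was 4.44-fold lower in AOM/DSS than in DSS (log2 change -2.15 ± 0.47 SE, adjusted p = 0.007), Herpud1 2.50-fold lower (-1.32 ± 0.31 SE, adjusted p = 0.010) and Ern2 2.01-fold lower (-1.01 ± 0.34 SE, adjusted p = 0.042). The groups did not overlap for these 3 genes, against 25.7% of all genes lower and 23.2% higher, where no member lay above DSS without overlap. Ern2 lost its call in 10 of 25 alternatives, among them without AOM/DSS replicate 3 (-0.73, adjusted p = 0.137) and without DSS replicate 3 (-0.77, adjusted p = 0.156), and also without AOM/DSS replicate 1, DSS replicate 2, or AOM replicates 2 or 3. The comparisons of AOM/DSS with control, AOM and DSS share the AOM/DSS arrays, so their agreement is no independent evidence.

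Slides and groups overlapped only in part. Within slide 3, AOM/DSS replicate 3 minus the mean of the 3 control arrays was -3.14 for Creb3l1, -2.31 for Ern2, -1.42 for Herpud1 and 0.66 for Hspa5. Within slide 1, AOM/DSS replicates 1 and 2 minus AOM replicates 1 and 2 was -1.82 for Creb3l1, -0.92 for Herpud1, -0.43 for Ern2, 0.73 for Hspa5 and 0.64 for Dnajb9. With slide as a fixed block the comparison of AOM/DSS with control rests on AOM/DSS replicate 3 alone, the lowest of the 3 for Creb3l1 and Ern2, and both were called (adjusted p = 0.020 and 0.019). In that fit no gene was called in AOM/DSS against AOM (Creb3l1 -1.82, adjusted p = 0.056; Herpud1 -0.92, adjusted p = 0.130) or against DSS (Creb3l1 -1.90, adjusted p = 0.205; Herpud1 -1.50, adjusted p = 0.185; Ern2 -0.62, adjusted p = 0.553). No slide held both AOM/DSS and DSS arrays.

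Markers of goblet cells, the mucus-secreting cells of the colon lining, and of absorptive colonocytes were both lower in AOM/DSS, where Creb3l1, Ern2 and Herpud1 were lower. All 14 goblet markers fell in AOM/DSS against control, where 17.4% of all genes fell. Their median change was -3.24 against 0.03 over all genes. Among them were the mucin Muc2 (-3.94), the disulfide isomerase Agr2 (-2.18) and Clca1 (-6.21). The summed linear level of the 14 genes was 170.6 to 506.1 on AOM/DSS, 1798 to 2948 on AOM, 2192 to 3972 on DSS and 2839 to 4351 on control arrays, with all AOM/DSS arrays below all others. In AOM against control 2 of the 14 fell and none rose, no more than the 17.7% of all genes that fell. In DSS against control none was called by limma, against 0.162% of all genes lower, and 2 had an unadjusted p under 0.05. In AOM/DSS, 12 of the 14 fell against AOM and all 14 against DSS, where 17.6% and 18.2% of all genes fell. Of the absorptive colonocyte markers, 10 of 12 fell and none rose in AOM/DSS against control, against 17.4% and 17.2% of all genes. Their median change was -2.55. They summed to 158.8 to 171.9 on AOM/DSS, 506.2 to 1024 on AOM, 828.9 to 1393 on DSS and 903.4 to 1945 on control arrays. The part of goblet cells or colonocytes in the changes of Creb3l1, Ern2 and Herpud1 was not tested, and in such bulk tissue fewer cells of a type and less RNA per cell cannot be told apart. Plasma and B cell markers, of cells also rich in ER, summed to 31.71 to 97.84 on AOM/DSS, 114.2 to 292.6 on AOM, 188.4 to 321 on DSS and 51.26 to 197.8 on control arrays, and 3 of 12 fell and none rose in AOM/DSS against control, against 17.4% and 17.2% of all genes. Their median change in AOM/DSS was -2.14 against control, -3.32 against AOM and -4.11 against DSS. The part of plasma and B cells was not tested. Neutrophil markers summed to 66.5 to 209.4 on AOM/DSS, 8.41 to 21.97 on AOM, 1.99 to 22.42 on DSS and 0.38 to 0.63 on control arrays. Of the 8 markers, 5 were not well above background on any control array, so the control sums lie partly at the floor. Their median change in AOM/DSS against control was 4.70. It was 2.97 when, for those 5, control arrays were set no lower than their dimmest probe well above background. The part of neutrophils was not tested either. Fibroblast markers had a median change against control of 2.01 in AOM/DSS, 1.86 in AOM and 1.72 in DSS. They summed to 14.71 to 167.9 on control arrays. For macrophage markers the medians were 1.85, 2.32 and 2.16. Of 4 Paneth cell markers, Lyz1 (2.89) and Mmp7 rose, Ang4 (-2.32) fell and Itln1 was not called in AOM/DSS against control. Mmp7 was well above background on no control array. The part of these cells was not tested.

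**Figure D3:**
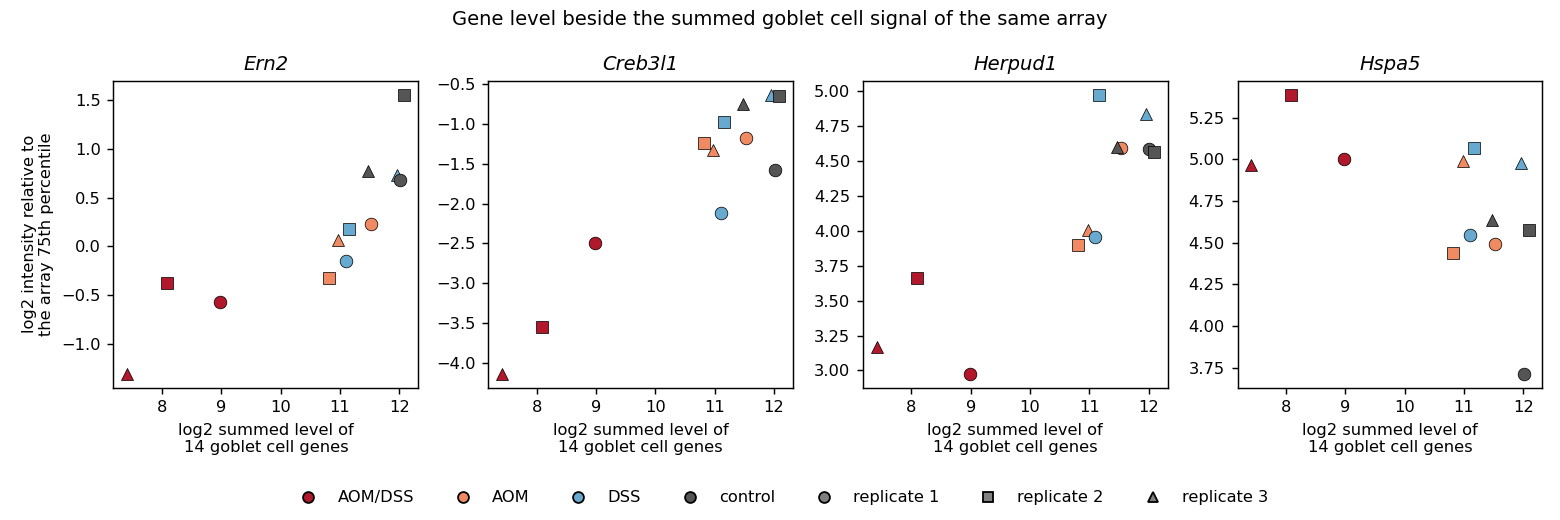
Level of Ern2, Creb3l1, Herpud1 and Hspa5 (y axis, log2 relative to the 75th percentile of the array) against log2 of the summed linear level of the 14 goblet cell markers (x axis) on each of the 12 arrays, coloured by group and shaped by replicate number. The AOM/DSS arrays have the lowest goblet marker levels and the lowest Creb3l1, Ern2 and Herpud1, while Hspa5 on them is 4.97 to 5.39.

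The other genes of the response were grouped in lists by role, whose counts stand against 17.2% of all genes higher and 17.4% lower in AOM/DSS against control, and 14.8% and 17.7% in AOM against control. Of 5 sensors and the proteases that cut ATF6, none was called in AOM/DSS against control by limma or had an unadjusted p under 0.05, and 1, the ATF6 relative Atf6b, rose in AOM (0.71, adjusted p = 0.044). The protease gene Mbtps2 passed the filter through the AOM/DSS arrays, the brighter ones, and was well above background on no others. Its change in AOM/DSS against control was 0.35 (adjusted p = 0.375). The bound on this change was 0.0 with control arrays set no lower than their dimmest probe well above background, so no difference is shown. Of 4 relatives of Creb3l1, Creb3l3 (-2.45) and Creb3l4 (-1.93) fell and Creb3l2 (1.22) rose in AOM/DSS against control, and in AOM Creb3l4 fell (-1.15) and Creb3l2 rose (1.26). Of 19 chaperones and folding enzymes none was called in AOM/DSS against control, 3 had an unadjusted p under 0.05, and the median change was 0.08. The smallest p were those of Pdia5 (-0.86, adjusted p = 0.059) and Txndc11 (-0.52, adjusted p = 0.091). In AOM 1 of the 19 fell, the oxidase Ero1a (-0.66), and the median was 0.17.

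ER-associated degradation, the machinery Herpud1 belongs to, had 4 of 12 genes lower and none higher in AOM/DSS against control, against 17.4% and 17.2% of all genes, and a median change of -0.40 against 0.03. Among them were Edem1 (-0.96), Os9 (-0.93) and Selenos (-0.75), with adjusted p of 0.003, 0.012 and 0.012. With slide as a fixed block 1 of the 12 was called lower, and without control replicate 3 and DSS replicate 1 it was 5. In AOM against control 3 of 12 fell, Edem3 (-0.89), Edem1 (-0.79) and Selenos (-0.59), with a median of -0.10. In AOM/DSS 5 of the 12 were lower and 2 higher than in AOM, against 17.6% and 19.5% of all genes, and 6 were lower and none higher than in DSS, against 18.2% and 17.6%. Of 18 genes of translocation into and export from the ER, 1 fell in AOM/DSS against control, Kdelr2 (-1.13), while in AOM Ssr2 (1.05) and Sec61b (0.94) rose and Spcs3 (-0.93) fell.

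More targets of the integrated stress response, the arm in which Atf4 acts, rose than fell in AOM/DSS and in AOM, while Atf4 itself was not called. In AOM/DSS against control 7 of 20 rose and 2 fell, with a median change of 0.49 against 0.03 over all genes, of which 17.2% rose and 17.4% fell. Among those that changed most were Stc2 (2.62), which encodes a secreted glycoprotein, the serine synthesis enzyme Psat1 (2.38) and the amino acid transporter Slc7a5 (1.48). The cystine transporter Slc7a11 passed the filter through the AOM/DSS arrays and was not well above background on any control array. With each control array set at its dimmest probe well above background, or at its own signal if higher, AOM/DSS exceeded control at least 3.32-fold for this gene (adjusted p = 0.003), and the list median with this bound was 0.49. In AOM against control 11 of 20 rose and 1 fell, with a median of 0.90 against -0.01 over all genes, of which 14.8% rose and 17.7% fell, led by Psat1 (2.52), Stc2 (2.46), Chac1 (1.98), which breaks down glutathione, and the pseudokinase Trib3 (1.80). In DSS against control none of the 20 was called by limma and 7 had an unadjusted p under 0.05. Without control replicate 3 and DSS replicate 1, 6 rose, in a fit that also called many more of all genes. With slide as a fixed block 3 rose and none fell in AOM/DSS and none was called in AOM, with medians of 0.74 and 1.32. Fewer of all genes were called in that fit too. The difference between AOM/DSS and AOM was tested directly. In AOM/DSS 1 of the 20 was higher and 1 lower, fewer than the 19.5% and 17.6% of all genes.

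**Figure D4:**
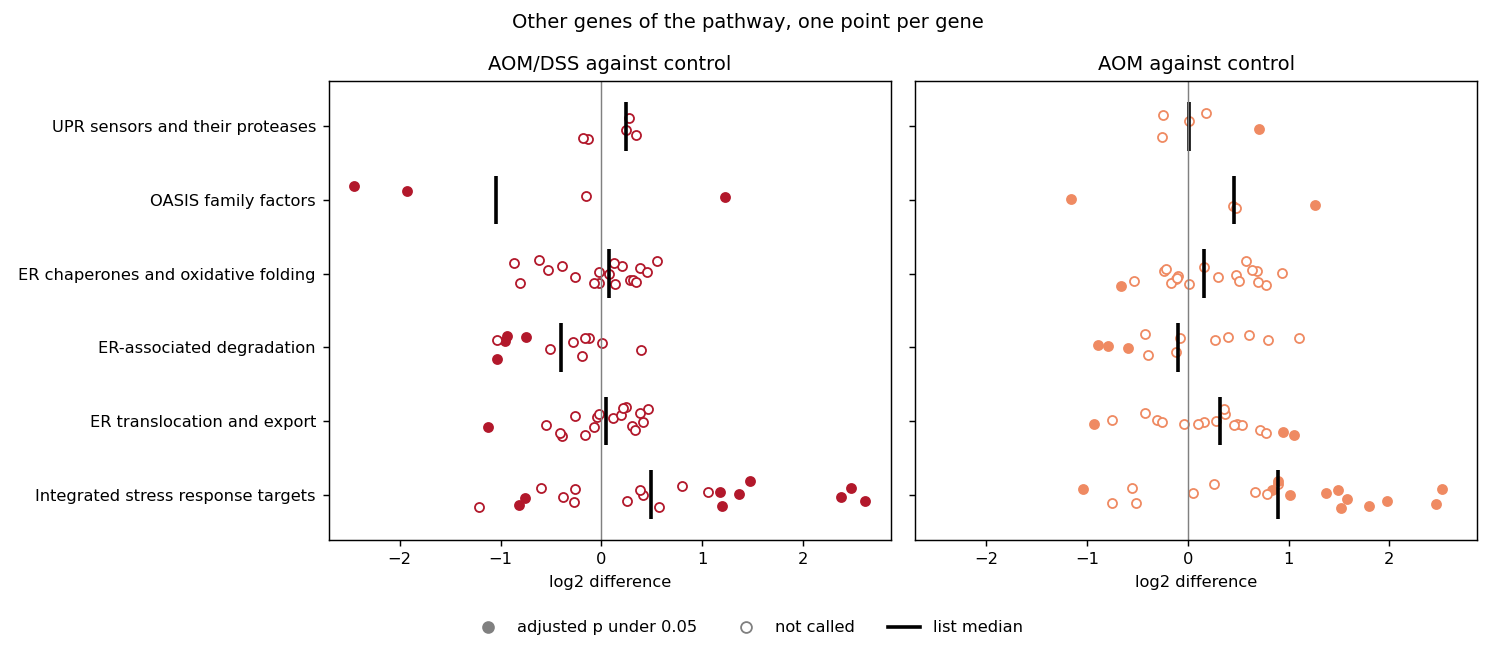
Change on the log2 scale of each gene of the 6 pathway lists (x axis) in AOM/DSS and in AOM against control, by list (rows); each point is 1 gene, filled where its adjusted p was under 0.05, and black lines mark the median of the list. Targets of the integrated stress response reach 2.62 in AOM/DSS and 2.52 in AOM, and the chaperones have a median of 0.08 and no filled point in AOM/DSS. Slc7a11 and Mbtps2, of the sensor list, were not well above background on control arrays, and their points are measured values.

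The genes whose pattern was most like that of a member were found by Pearson's r over the 12 arrays among 10978 named genes above background on all arrays. These values describe the 12 arrays, which fall into 4 groups, so they hold the group differences as well. Nearest to Creb3l1 were Fam174b (0.976), B3gnt7 (0.974) and Ramp1 (0.960), and nearest to Ern2 were Gpr20 (0.966), Insrr (0.957) and Rap1gap (0.952). Nearest to Herpud1 were Adra1d (0.952), Pnkd (0.946) and the goblet list gene Galnt12 (0.943). Pdia4 was nearest to Fkbp11 (0.953), Pdia6 (0.943) and Chac1 (0.939), of which Pdia6 is another disulfide isomerase. Xbp1 was nearest to Slc27a1 (0.918) and Serp1 (0.895), Atf4 to Mrpl34 (0.934), Ddit3 to Rras2 (0.920), Ern1 to Sipa1l1 (0.905), Hspa5 to Antxr2 (0.884) and Dnajb9 to Eps8 (0.843).

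**Figure D5:**
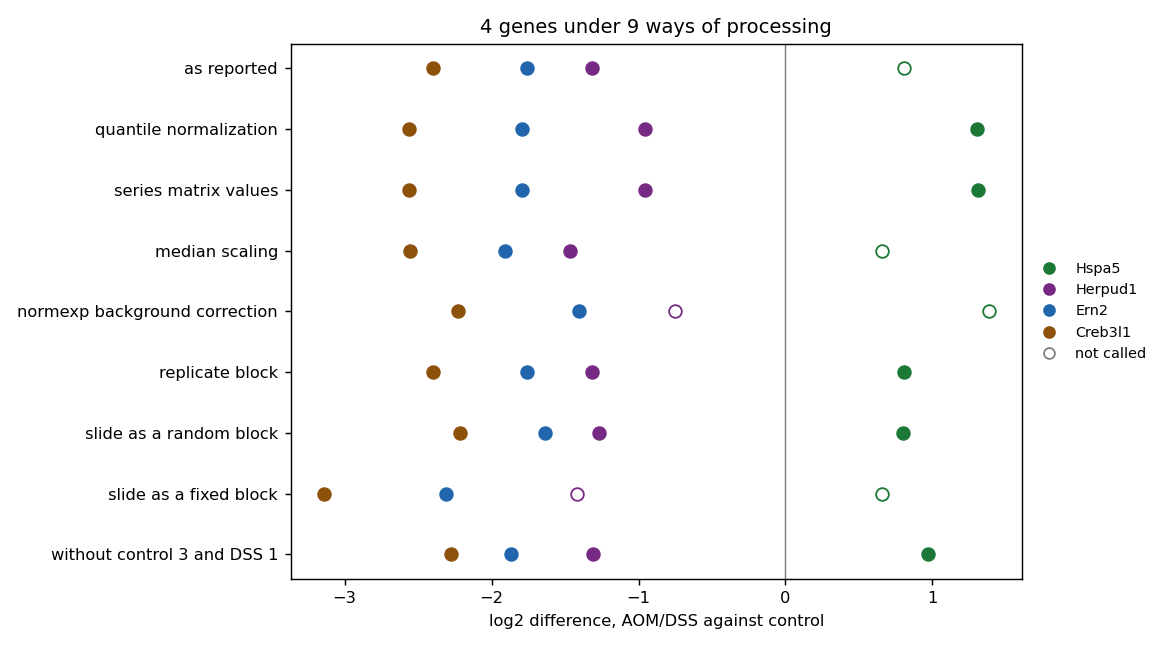
Change of Creb3l1, Ern2, Herpud1 and Hspa5 in AOM/DSS against control on the log2 scale (x axis) as reported and under other ways of processing (rows); filled points passed an adjusted p of 0.05. Every point of Creb3l1 and Ern2 is filled, Herpud1 is open with normexp (-0.75) and with slide as a fixed block (-1.42), and Hspa5 is open as reported (0.81) and filled with quantile normalization (1.31).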

How the data were processed

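Total RNA was labelled with Cy3 and hybridised to 1 array per sample, 12 in all. Per the file headers the deposited scanner files were made with Agilent Feature Extraction 10.7.3.1 (10.7 in the submitters' processing notes), and hold for each spot a processed intensity, background-subtracted by that program. The deposited series matrix holds log2 values, which had the same sorted values on every array to within 0.000945, a column median of 6.174, and a correlation of 0.995 to 1.000 with log2 of the processed intensity; their direction and centring were read from this match, and they served as an alternative.

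Control spots and spots flagged as non-uniform or population outliers were left out, and spots of a probe were averaged. Each array was divided by its 75th percentile before log2. Genes with a probe that cleared background on every array of some group were kept, and a gene was its probe of highest mean over the 12 arrays. Of 41174 probes, 27198 had a symbol through the RefSeq accession of the probe and 13976 none. Group means of 4 groups were fitted with limma 3.58.1 in R 4.3.3, with 8 residual degrees of freedom, and the procedure was tested on simulated data. Alternatives covered background correction, scaling, filter, probe choice, slide, replicate number and left-out arrays.

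The genes and the lists were chosen with earlier results of these data known. From each pathway list, the 4 called genes that changed most could be named, or, in a list without calls, the 2 of lowest p. For each of the 10 genes, up to 3 genes with the highest correlation were named. The values of 1 gene that met this rule are not reported here.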

Additional observations from a re-analysis of the deposited data

How the results depend on the processing

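Each result was recomputed under 25 alternatives, of which 12 left out 1 array each. In AOM/DSS against control 3 genes were called, and 3 to 4 with 1 array left out. Herpud1 lost its call there with normexp and with slide as a fixed block, and no gene gained one in these settings. In AOM against control 2 became 0 with normexp, median scaling, no filter, slide as a fixed block and the 2 groups fitted alone, and 0 to 3 with 1 array left out. In AOM/DSS against AOM 2 became 1 with normexp or no filter, 0 with the slide block, and 1 to 2 with 1 array left out. In AOM/DSS against DSS 3 became 1 with normexp, 0 with the slide block, and 2 to 3 with 1 array left out. In DSS against control 0 became 1 without control replicate 3 and DSS replicate 1 together, and stayed 0 with 1 array left out. The replicate numbers were not shown to pair the arrays: same-numbered deviations correlated at -0.273 to 0.249, 8 of 18 over 0.1, and 17 of 36 comparisons of an array with another group were best with its own number. With a replicate block 4, 1, 0, 1 and 2 genes were called in AOM/DSS, AOM and DSS against control and in AOM/DSS against AOM and DSS, against 3, 2, 0, 2 and 3 without it. Of 1250 values, the 50 changes of the 10 genes in the 5 comparisons under 25 alternatives each, 1121 kept direction and side of the threshold, 56 lost a call, 20 gained one and 53 changed sign, none of the 53 called. In AOM/DSS against control these were Dnajb9 with normexp (0.15), Xbp1 (-0.046) and Atf4 (-0.071) with median scaling, and Ern1 (-0.55 to 0.050 with 1 array left out). In AOM against control they were Herpud1 with normexp (0.046) and Hspa5 with the slide block (-0.074). Against AOM in AOM/DSS they were Ern1 (-0.026) and Ddit3 (-0.17) with median scaling, Xbp1 with quantile normalization (0.13) and series matrix values (0.14), and Ddit3 (-0.034 to 0.36 with 1 array left out). In AOM/DSS against DSS they were Pdia4 with normexp (0.038) and Dnajb9 with normexp (0.14) and the slide block (0.0042), Xbp1 with normexp (0.16), quantile normalization (0.051), series matrix values (0.052) and 1 array left out (-0.39 to 0.054), Atf4 with normexp (0.31), quantile normalization (0.177), series matrix values (0.178), the slide block (0.22) and 1 array left out (-0.28 to 0.13), Ern1 with a random slide block (0.11) and 1 array left out (-0.27 to 0.25), and Ddit3 with the slide block (0.11). In DSS against control they were Ern1 with normexp (0.0046) and 1 array left out (-0.52 to 0.037), Ddit3 with normexp (0.029) and 1 array left out (-0.27 to 0.060), Atf4 with 1 array left out (-0.047 to 0.36), Hspa5 with the slide block (-0.20), Creb3l1 without both named arrays (0.31) and with 1 array left out (-0.55 to 0.19), Herpud1 with quantile normalization (-0.059), series matrix values (-0.061), a random slide block (-0.0034) and 1 array left out (-0.19 to 0.32), and Dnajb9 with normexp (0.0026), median scaling (0.051), the mean of its probes (0.057), a random slide block (0.016), without both named arrays (0.063) and with 1 array left out (-0.18 to 0.10). The cause was not tested. Over all genes, 6629, 6209, 62, 7105 and 6856 were called in the same order of comparisons, 2223, 4, 2, 2854 and 479 with the slide block, and 3102, 1935, 1, 1502 and 2267 with normexp. Without a filter the counts were 13955 in AOM/DSS against control, 13379 against DSS and 39 in DSS against control. The last was 114 with quantile normalization, 109 with series matrix values, 22 with the 2 groups alone and 2541 with a random slide block. With 1 array left out the ranges were 4337 to 7432, 2000 to 7370, 1 to 3230, 3398 to 8180 and 3341 to 8945. Median scaling moved the median change of all genes to -0.12, 0.16, 0.05, -0.36 and -0.18, and normexp to -0.34, -0.28, -0.11, -0.15 and -0.30. In AOM/DSS and AOM against control and AOM/DSS against AOM and DSS, the higher share of calls was 49.7, 45.5, 52.6 and 49.2%, 39.2, 53.5, 33.8 and 35.2% with median scaling, and 38.0, 56.1, 39.9 and 34.8% with normexp; in DSS against control 31 of 62 calls were higher, and none of 1 with normexp. All 12 probes of the genes were above background on every array, so none has only a bound.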
